A study of Mus musculus with 20 samples.

Results

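The expression of 10 genes of resident macrophages (*C1qa*, *C1qb*, *C1qc*, *Csf1r*, *Cx3cr1*, *Mrc1*, *Tyrobp*, *Fcer1g*, *Cd68* and *Lyz2*) was examined in the utricle, the otolith organ of the inner ear that senses linear acceleration. The genes were chosen by name as macrophage genes, and all 10 were found among the 25655 genes of the deposited tables, of which 15803 had a count in at least 1 library. Utricles were taken from C57BL/6J female mice 4 weeks after an operation at 8 weeks of age. The sham + v group (replicates 1 to 5) was sham-operated and carried a vehicle pellet. The OVX + v group (replicates 6 to 10) was ovariectomized and carried a vehicle pellet. The OVX + E2 group (replicates 11 to 15) was ovariectomized and carried a 60-day pellet of 50 µg of estradiol, and the OVX + RAL group (replicates 16 to 20) was ovariectomized and carried a 60-day pellet of 2.4 mg of raloxifene, a selective estrogen receptor modulator. Each group had 5 libraries, prepared with a 3′ end mRNA kit from 1 ng of RNA. Where 4 group levels are listed below they follow the replicate numbers, with sham + v first, then OVX + v, OVX + E2 and OVX + RAL, and comparisons are listed in that order too. No transgene, cell sorting or batch is named for these libraries. The labels do not say that each library is a separate mouse, so that the p-values below measure the spread between these samples, which may in part be technical.

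Macrophages are phagocytic cells that live in most tissues, the inner ear included, and clear debris and dying cells. They depend on signals through the receptor CSF1R, and they are a main source of C1q, the recognition protein that starts the classical complement pathway. Many of their surface receptors carry no signaling motif of their own and signal through small adaptor proteins such as TYROBP and FCER1G. Estrogen receptors are present in macrophages of many tissues. In RNA of a whole organ, fewer macrophages and less RNA per macrophage cannot be told apart.

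No macrophage gene passed an adjusted p of 0.05 in any comparison of a group with the OVX + v group or in the test for any difference among the 4 groups (quasi-likelihood test of edgeR, p adjusted after Benjamini and Hochberg over all genes tested). All 10 genes were detected in every group, but their counts spread widely among the libraries of a group. Of the 200 values (10 genes in 20 libraries), 41 were 0 counts, 13 were 1 or 2 counts and 146 were 3 counts or more. In 20 of the 40 combinations of a gene and a group, 1 library had no count and another library of the same group had 50 counts or more. *Lyz2* was the only one of the 10 genes with at least 3 counts in all 20 libraries. The counts of every gene in every library are shown in the plot of deposited counts.

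**Figure D1:**
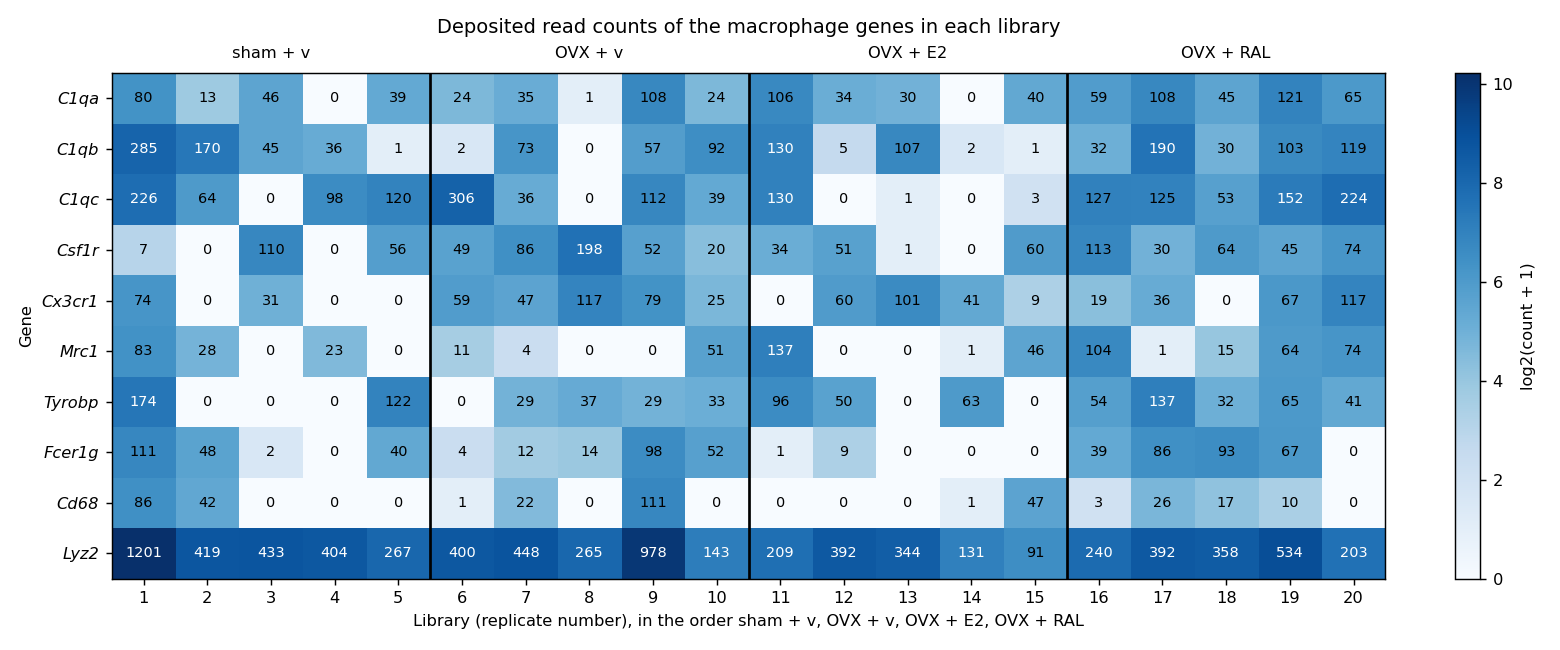
Deposited read counts of the 10 macrophage genes (rows) in the 20 libraries (columns, replicates 1 to 20), with the count printed in each cell and the color giving log2(count + 1). *Lyz2* had between 91 and 1201 counts in every library, whereas the other 9 genes each had libraries at 0 or 1 counts beside libraries with over 50 counts.

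The libraries held between 1123053 and 2081747 counts. The OVX + E2 libraries had the lowest median (1324047 counts), with 1123053 to 1507667 counts and 7427 to 9680 genes with a count. The ranges were 1435156 to 2019032 counts and 10004 to 10694 genes in the OVX + v group. They were 1507719 to 2053255 counts and 8651 to 10625 genes in the sham + v group, and 1702313 to 2081747 counts and 10103 to 10290 genes in the OVX + RAL group. A count of 3, taken as detection, was 1.44 to 2.67 CPM (counts per 1000000 counts of the library). A value of 0 thus allows a level of up to 1.44 to 2.67 CPM, and these limits cover counting error only. Hair cell and supporting cell genes were checked for the tissue. *Pou4f3*, a hair cell transcription factor, averaged 276 CPM and *Otog*, which encodes otogelin of the otoconial membrane, 2508 CPM over the 20 libraries, both with 3 counts or more in all 20. Of the further defining macrophage markers, *Adgre1* (the F4/80 antigen), *Aif1* (IBA1), *Cd14*, *Cd163* and *Spi1* (the transcription factor PU.1) each reached 3 counts in 4 or 5 of the 20 libraries, with mean levels of 1.68 to 5.54 CPM. Of the other macrophage identity genes, *Csf2ra* and *Mertk* reached 3 counts in all 20 libraries, *Ctss* in 18, *Laptm5* (19.7 CPM) in 13 and *Mpeg1* (12.9 CPM, named after its values were seen) in 12, and the rest in at most 7.

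The C1q chains are considered first. *C1qa*, *C1qb* and *C1qc* encode the A, B and C chains, which assemble in equal numbers into the C1q molecule. The 3 genes lie side by side on the minus strand of chromosome 4 (GRCm39), with *C1qb* at 136607440 to 136613498, *C1qc* at 136617115 to 136620376 and *C1qa* at 136623228 to 136626114. Gaps of 3616 and 2851 bases separate them, and no other listed gene overlaps them. The canonical transcript of each has 3 exons.

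*C1qa* had 80, 13, 46, 0 and 39 counts in the sham + v libraries (replicates 1 to 5 in order), and 24, 35, 1, 108 and 24 in the OVX + v libraries. It had 106, 34, 30, 0 and 40 counts in the OVX + E2 libraries and 59, 108, 45, 121 and 65 in the OVX + RAL libraries. All 5 OVX + RAL libraries thus lay above 40 counts, while each of the other groups held 1 library at 0 or 1, and the ranges of all groups overlapped. The levels were 19.8 ± 15.97, 21.5 ± 19.5, 29.6 ± 25.4 and 41.9 ± 17.4 CPM in the 4 groups (mean ± SD, n = 5). Against the OVX + v libraries, the OVX + RAL group was higher by 0.96 on the log2 scale (standard error 1.05, 95% interval -1.11 to 3.03), with an adjusted p of 0.99994 from edgeR. Leaving out single libraries gave 0.64 (without OVX + v replicate 8) to 1.63 (without OVX + v replicate 9). The exact permutation test on log2(CPM + 1) gave an unadjusted p of 0.0794 for this difference and an adjusted p of 1.0 over all genes tested.

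*C1qb* had 285, 170, 45, 36 and 1 counts in the sham + v libraries and 2, 73, 0, 57 and 92 in the OVX + v libraries. The OVX + E2 libraries had 130, 5, 107, 2 and 1 counts, and the OVX + RAL libraries 32, 190, 30, 103 and 119. In the OVX + E2 group the libraries divided into replicates 11 and 13 with over 100 counts and the other 3 with 5 or fewer. The mean was highest in the sham + v group (55.1 ± 57.4 CPM) and lowest in the OVX + v group (27.9 ± 27.9 CPM), a log2 fold change of 0.98 (standard error 1.01, 95% interval -0.99 to 2.96, adjusted p = 0.9998 from edgeR). With single libraries left out it ranged from 0.29 (without sham + v replicate 1) to 1.55 (without OVX + v replicate 10).

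*C1qc* had 226, 64, 0, 98 and 120 counts in the sham + v libraries and 306, 36, 0, 112 and 39 in the OVX + v libraries. The OVX + E2 libraries had 130, 0, 1, 0 and 3 counts, and the OVX + RAL libraries 127, 125, 53, 152 and 224. Of the OVX + E2 libraries, 4 were thus at 3 counts or fewer and replicate 11 alone carried the level of the group. The mean levels were 55.6 ± 42.2, 59.2 ± 76.1, 17.8 ± 38.2 and 70.2 ± 27.6 CPM in the 4 groups. The log2 fold change of the OVX + E2 group was -1.72 (standard error 1.31, 95% interval -4.30 to 0.86), and the adjusted p was 0.859 from edgeR. With single libraries left out it ranged from -6.16 (without OVX + E2 replicate 11, adjusted p = 0.474 from edgeR) to -0.56 (without OVX + v replicate 6, adjusted p = 0.9998). The adjusted p of the test among the 4 groups was 0.813, and 0.0606 without OVX + E2 replicate 11. The exact permutation p of the difference with all 10 libraries was 0.175.

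The proportions of the chains differed widely between libraries. The transcripts of *C1qb* and *C1qc* in GENCODE vM39 run 1431 and 649 bases past the 3′ ends of the listed genes, and that of *C1qa* 0 bases. The chains may therefore not be counted alike, which was not tested. In all 5 OVX + RAL libraries each chain made between 14.7% and 58.3% of the summed C1q counts. In OVX + v replicate 6, *C1qc* made 92.2% of 332 C1q counts. In OVX + E2 replicate 15, *C1qa* made 90.9% of 44 counts, and in OVX + E2 replicate 13 *C1qb* made 77.5% of 138 counts. OVX + v replicate 8 and OVX + E2 replicate 14 had 1 and 2 C1q counts in all. The summed C1q level was 130 ± 92.6, 109 ± 74.9, 83.1 ± 98.1 and 162 ± 64.7 CPM in the 4 groups, whose ranges overlapped.

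**Figure D2:**
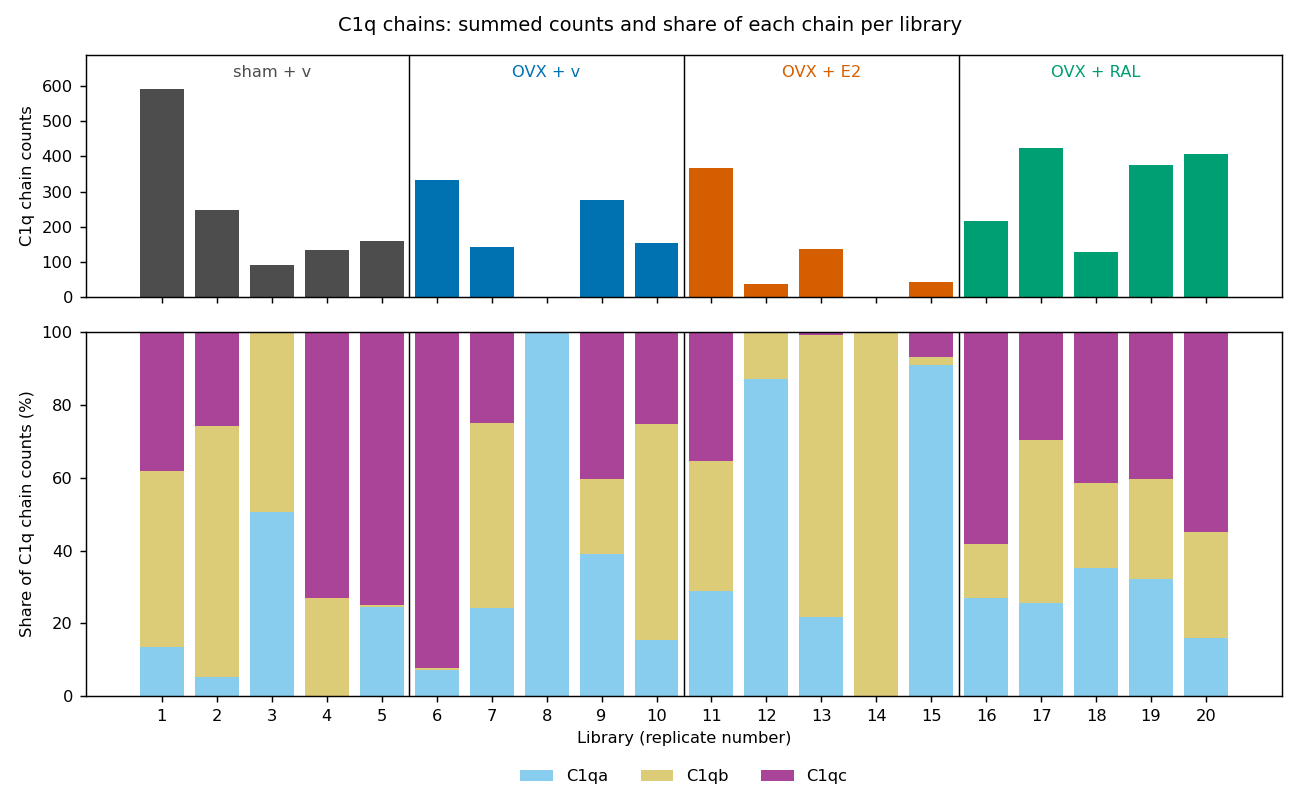
C1q chain counts in each library: the upper bars give the summed counts of *C1qa*, *C1qb* and *C1qc*, and the lower bars the percent share of each chain, for replicates 1 to 20 with the groups separated by lines. The OVX + RAL libraries held 128 to 423 counts with every chain present, whereas OVX + v replicate 8 and OVX + E2 replicate 14 held 1 and 2 counts of a single chain.

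Among the receptors, *Csf1r* encodes the receptor of the growth factors CSF1 and IL-34, on which macrophages depend for survival. *Cx3cr1* encodes the receptor of the chemokine fractalkine, and *Mrc1* the mannose receptor CD206, a scavenger receptor of tissue-resident macrophages. *Csf1r* overlaps *Hmgxb3* on the opposite strand. The listed *Cx3cr1* reaches from 119730682 to 119898945 on chromosome 9, and its 3′ end lies 147067 bases beyond that of GENCODE vM39. It therefore spans *Wdr48*, *Gorasp1*, *Ttc21a*, *Csrnp1* and *Xirp1*. The authors mapped with the default settings of their software. What these were for strand and for a read in overlapping genes is not given in the sources used here, so that the values of *Csf1r* and *Cx3cr1* are uncertain to that extent.

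*Csf1r* had 7, 0, 110, 0 and 56 counts in the sham + v libraries and 49, 86, 198, 52 and 20 in the OVX + v libraries. It had 34, 51, 1, 0 and 60 counts in the OVX + E2 libraries and 113, 30, 64, 45 and 74 in the OVX + RAL libraries. No library of the OVX + v or OVX + RAL group was below 20 counts, while the sham + v group had 3 libraries and the OVX + E2 group 2 libraries under every OVX + v library. The level was highest in the OVX + v group (47.3 ± 39.114 CPM), followed by 34.2 ± 15.99 in the OVX + RAL, 21.1 ± 29.2 in the sham + v and 20.8 ± 20.02 CPM in the OVX + E2 group, and no pair of neighbors in this order differed by more than the SD. The log2 fold changes against the OVX + v group were -1.16 (standard error 1.16) in the sham + v and -1.18 (standard error 1.40) in the OVX + E2 group, both with an adjusted p of at least 0.9997 from edgeR. With single libraries left out the first ranged from -2.22 (without sham + v replicate 3) to -0.55 (without OVX + v replicate 8), and the second from -1.60 to -0.58.

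*Cx3cr1* had 74, 0, 31, 0 and 0 counts in the sham + v libraries and 59, 47, 117, 79 and 25 in the OVX + v libraries. The OVX + E2 libraries had 0, 60, 101, 41 and 9 counts and the OVX + RAL libraries 19, 36, 0, 67 and 117. All 5 OVX + v libraries held 25 counts or more, and 3 of the 5 sham + v libraries held none. On log2(CPM + 1) the sham + v group was lower than the OVX + v group by 3.26, with an unadjusted exact permutation p of 0.0476 (two-sided, over all groupings of the 10 libraries into 5 and 5, where the smallest possible p is 0.00794) and an adjusted p of 1.0 over all genes tested. The levels were 10.9 ± 16.2 and 37.8 ± 18.03 CPM, and edgeR gave a log2 fold change of -1.79 (standard error 1.48, 95% interval -4.69 to 1.12, adjusted p = 0.9998). With single libraries left out it ranged from -3.02 (without sham + v replicate 1) to -1.47.

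*Mrc1* had 83, 28, 0, 23 and 0 counts in the sham + v libraries and 11, 4, 0, 0 and 51 in the OVX + v libraries. The OVX + E2 libraries had 137, 0, 0, 1 and 46 counts and the OVX + RAL libraries 104, 1, 15, 64 and 74. The mean of the OVX + E2 group thus came from 2 libraries, and that of the OVX + v group mainly from replicate 10. Levels ran from 8.98 ± 15.1 CPM in the OVX + v to 26.4 ± 21.5 CPM in the OVX + RAL group, a log2 fold change of 1.55 with a 95% interval of -1.60 to 4.71 (adjusted p = 0.99994, edgeR). With single libraries left out it ranged from 1.13 (without OVX + RAL replicate 16) to 3.47 (without OVX + v replicate 10). Of the ligands of these receptors, *Cx3cl1* (fractalkine) averaged 40.4 CPM, *Csf1* 20.3 CPM and *Il34* 18.9 CPM over the 20 libraries. None of the 3 ligands passed the test in any comparison. The fitted difference from the OVX + v group was negative for all 3 in both the sham + v and the OVX + E2 comparison and for 2 of the 3 in the OVX + RAL comparison. The median over all genes tested was also below 0 in the 3 comparisons (-0.02, -0.06 and -0.03). The smallest adjusted p of the ligands was 0.924 (edgeR, OVX + E2 comparison), and the comparisons share the OVX + v libraries.

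**Figure D3:**
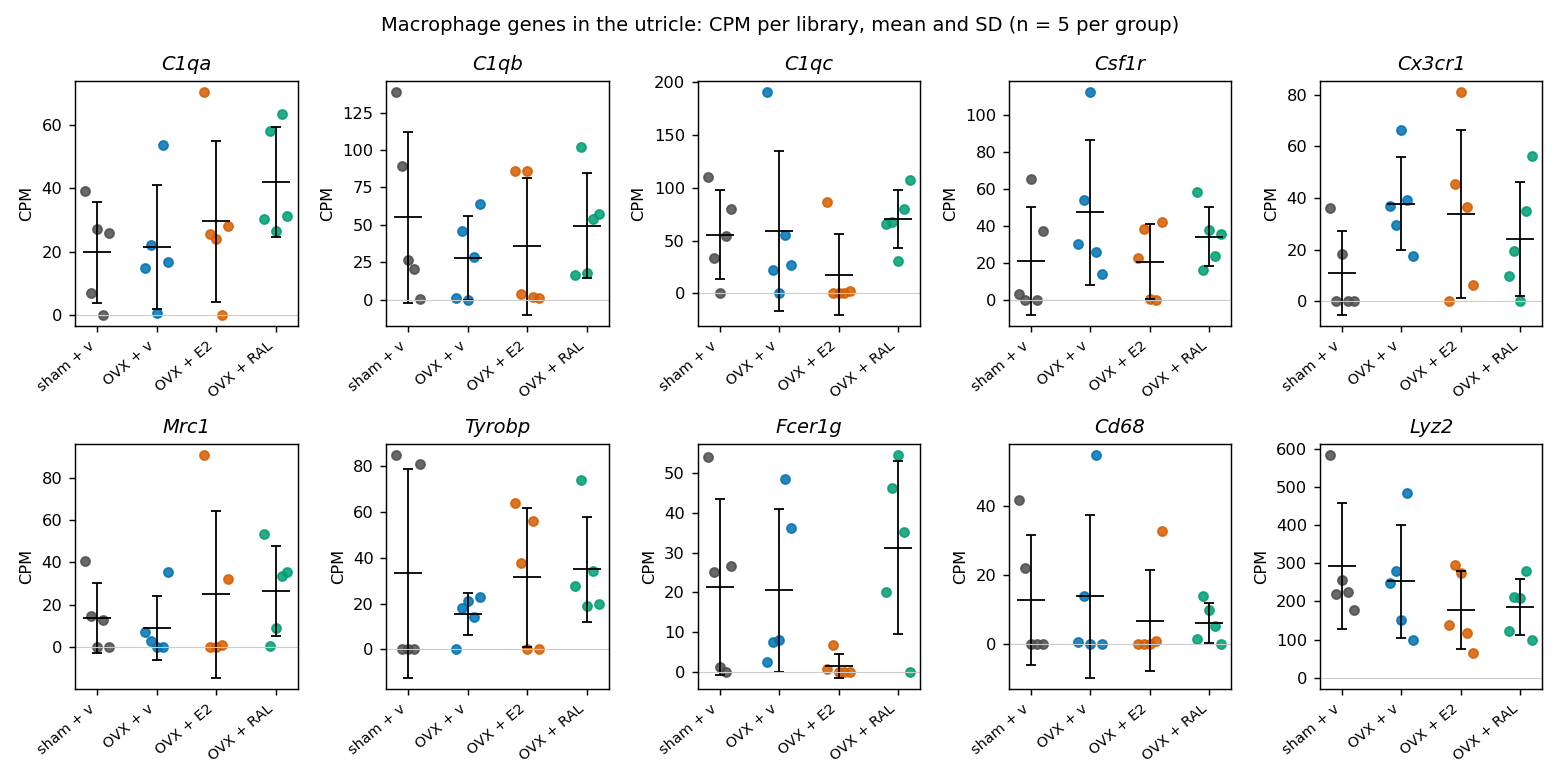
Levels of the 10 macrophage genes in CPM (vertical axes, linear) by group, with 1 point per library and the mean and SD of 5 libraries in black. *Lyz2* is the only gene with no library near 0, and *Fcer1g* in the OVX + E2 group lay between 0 and 6.80 CPM, and in each other group reached over 48 CPM.

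*Tyrobp* encodes DAP12 and *Fcer1g* the common Fc receptor γ chain, adaptors through which TREM2 and Fc receptors, respectively, signal. *Tyrobp* had 174, 0, 0, 0 and 122 counts in the sham + v libraries and 0, 29, 37, 29 and 33 in the OVX + v libraries. It had 96, 50, 0, 63 and 0 counts in the OVX + E2 libraries and 54, 137, 32, 65 and 41 in the OVX + RAL libraries. The sham + v libraries were either at 0 (3 libraries) or above every OVX + v library (2 libraries), at 33.1 ± 45.4 CPM against 15.3 ± 9.15 CPM. In the sham + v and OVX + E2 groups the direction of the difference depended on the scale: the edgeR log2 fold changes were 1.11 and 1.04 (0.40 to 1.43 and 0.61 to 1.36 with single libraries left out), and the differences on log2(CPM + 1) were -0.89 and -0.02. In the OVX + RAL group (34.8 ± 22.7 CPM) the difference on log2(CPM + 1) was 1.53, with an unadjusted exact permutation p of 0.0635 and an adjusted p of 1.0.

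*Fcer1g* had 111, 48, 2, 0 and 40 counts in the sham + v libraries, 4, 12, 14, 98 and 52 in the OVX + v libraries and 39, 86, 93, 67 and 0 in the OVX + RAL libraries. In the OVX + E2 libraries it had 1, 9, 0, 0 and 0 counts. Of these, 4 lay below every OVX + v library, and replicate 12 with 9 counts lay within the OVX + v range. The level was 1.49 ± 2.98 CPM in the OVX + E2 group against 20.5 ± 20.5 CPM in the OVX + v group, and this was the only 1 of the 30 pairs of neighboring group means, over all 10 genes, that lay further apart than the SD. On log2(CPM + 1) the OVX + E2 group was lower by 3.04 (unadjusted exact permutation p = 0.0159), but the adjusted p over all genes tested was 0.920. By edgeR the log2 fold change was -3.71 with a standard error of 2.64 and a 95% interval of -8.88 to 1.47 (adjusted p = 0.787), and the test among the 4 groups gave an adjusted p of 0.7104. Neutrophils also express *Fcer1g*. The summed level of the 10 neutrophil markers was 0 to 0.890 CPM in the OVX + E2 libraries and 0 to 204 CPM in the OVX + v libraries. In the OVX + v libraries, replicates 6 to 10 in order, the summed markers were at 97.8, 0, 21.5, 204 and 0 CPM, and in the sham + v libraries at 142, 24.7, 5.93, 0 and 0 CPM. In the OVX + RAL libraries the markers were at 62.8, 0, 0, 60.9 and 17.8 CPM. *Elane* and *Mpo* were at 0 in all 20 libraries. The part of neutrophils, and of the lower depth of the OVX + E2 libraries, in the *Fcer1g* difference was not tested.

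*Cd68* encodes a glycoprotein of late endosomes and lysosomes and *Lyz2* encodes lysozyme M, a bactericidal enzyme of macrophages and neutrophils. *Cd68* was the sparsest of the 10 genes. It had 86, 42, 0, 0 and 0 counts in the sham + v libraries, 1, 22, 0, 111 and 0 in the OVX + v libraries, 0, 0, 0, 1 and 47 in the OVX + E2 libraries and 3, 26, 17, 10 and 0 in the OVX + RAL libraries. The group means lay between 6.16 ± 5.84 CPM in the OVX + RAL group and 13.9 ± 23.7 CPM in the OVX + v group. OVX + v replicate 9 carried most of the latter, and without it the log2 fold changes of the 3 comparisons turned from -0.12, -1.03 and -1.17 to 1.81, 0.89 and 0.76.

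*Lyz2* had 1201, 419, 433, 404 and 267 counts in the sham + v libraries and 400, 448, 265, 978 and 143 in the OVX + v libraries. It had 209, 392, 344, 131 and 91 counts in the OVX + E2 libraries and 240, 392, 358, 534 and 203 in the OVX + RAL libraries. *Lyz2* alone made between 22.1% and 72.01% of the counts of the 10 genes in a library, on counts not corrected for length. The levels were 293 ± 166, 253 ± 149, 178 ± 102 and 185 ± 73.9 CPM in the 4 groups, and the ranges overlapped in every comparison. *Lyz2* was the most precisely measured of the 10 genes. Its log2 fold changes against the OVX + v group were 0.21 (95% interval -0.44 to 0.86), -0.51 (-1.36 to 0.35) and -0.46 (-1.15 to 0.24) in the 3 comparisons. The adjusted p was 0.9998, 0.952 and 0.957, respectively (edgeR).

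The highest *Lyz2* levels of all 20 libraries were those of sham + v replicate 1 (585 CPM) and OVX + v replicate 9 (484 CPM). These were also the libraries with the highest summed neutrophil markers, 142 and 204 CPM. With both left out, the log2 fold change of *Lyz2* was 0.17 (adjusted p = 0.99989, edgeR), and 0 of the 10 genes passed the threshold. The part of neutrophils in the *Lyz2* level was not tested. *Lyz2* lies on the minus strand of chromosome 10 at 117113236 to 117118226, 5475 bases from its near-identical copy *Lyz1*. Of 338 windows of 63 bases, the longest read left after trimming, in the last 400 transcript bases of the listed *Lyz2*, 42 occur unchanged in *Lyz1* and 283 with up to 5 mismatches, so that reads of both genes may be exchanged. *Lyz1* was counted in only 4 libraries, replicates 1, 9, 17 and 19, with 1, 48, 81 and 1 counts. None of the 338 windows of the other 9 genes occurs in a transcript of another gene. For *Cx3cr1* these windows end at the 3′ end of GENCODE vM39, and the last bases of the longer listed gene were not examined.

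**Figure D4:**
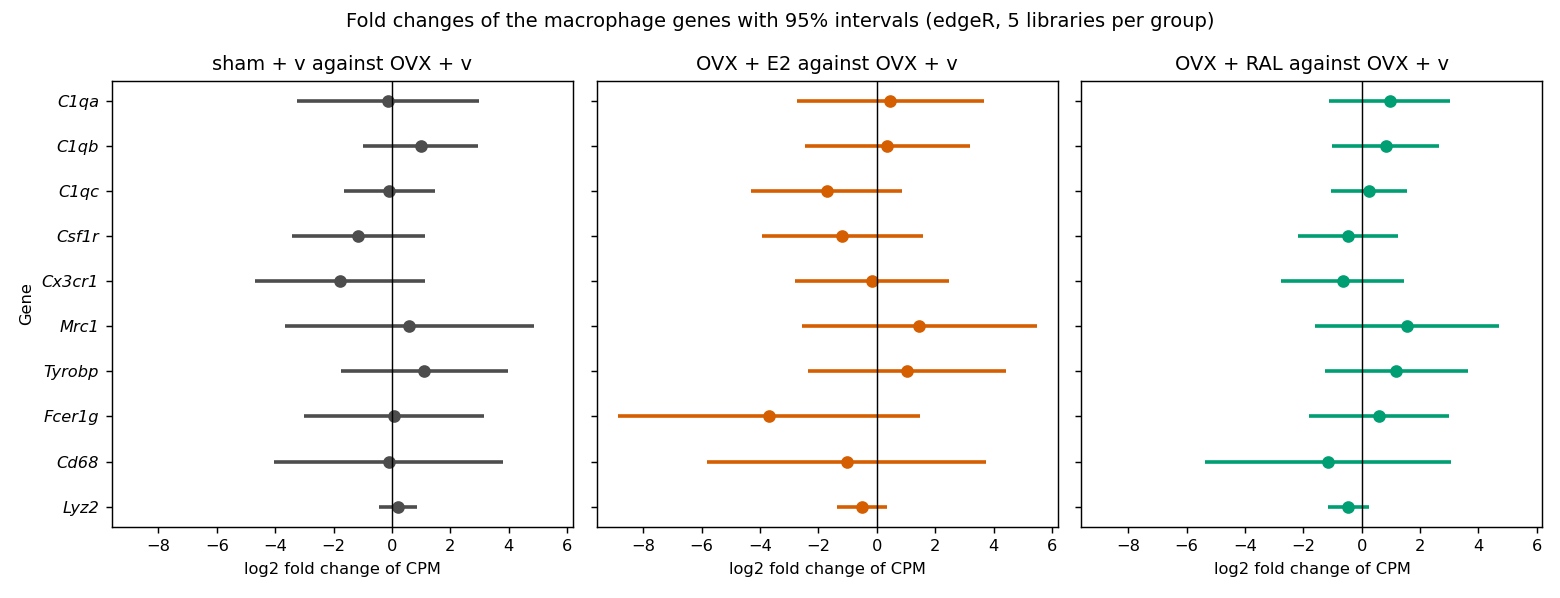
Log2 fold changes of the 10 macrophage genes (rows) of each other group against the OVX + v group, from edgeR on 5 libraries per group; points are estimates and lines 95% intervals. All 30 intervals include 0; that of *Lyz2* in the sham + v group is the narrowest (-0.44 to 0.86), and that of *Fcer1g* in the OVX + E2 group reaches from -8.88 to 1.47.

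Taking the 10 genes as a group, 0 passed an adjusted p of 0.05 in the sham + v against the OVX + v group, where 0.0145% of all 13825 genes tested did. In the OVX + E2 group 0 passed, beside 0.0584% of 13695 genes, and in the OVX + RAL group 0 passed, beside 0.0286% of 14002 genes. In the test among the 4 groups 0 passed, beside 0.141% of 14870 genes. At an unadjusted p under 0.05 edgeR called 0 of the 10 genes in each of the 4 tests, where it called 12.5%, 13.9%, 12.1% and 16.3% of all genes tested. These shares over all genes depended on the settings. In the sham + v comparison 757 of 13825 genes were called with a newer form of the fit and 148 of 8956 with the default filter of edgeR. DESeq2 and limma called 0 of the 10 genes at an adjusted p of 0.05 as well. None of the 30 pairs of groups was without overlap, beside 0.499%, 0.832% and 0.578% of all genes in the 3 comparisons. The 3 comparisons share the 5 OVX + v libraries.

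Of the 10 genes, 5 were higher and 5 lower in the sham + v than in the OVX + v group, with a median log2 fold change of -0.02 beside -0.02 over all genes tested. With E2, 4 were higher and 6 lower, with a median of -0.33 beside -0.06 over all genes. In the OVX + RAL group 6 were higher and 4 lower, with a median of 0.42 beside -0.03. The signs of 6 of these 30 differences turned with limma on log2(CPM + 1). The highest group mean was that of the OVX + RAL group for 5 genes, of the OVX + v group for 3 and of the sham + v group for 2. The lowest was that of the OVX + E2 group for 4 genes, of the OVX + v group for 3, of the sham + v group for 2 and of the OVX + RAL group for 1. The summed level of the 10 genes was 536 ± 337, 505 ± 188, 380 ± 160 and 503 ± 114 CPM in the 4 groups, with overlapping ranges. Without *Lyz2* it was 243 ± 181, 252.4 ± 48.0, 202 ± 127 and 319 ± 76.1 CPM, so that the highest mean was that of the OVX + RAL group in place of the sham + v group.

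The number of libraries with a detected level also varied between the groups. Of the 50 values in a group, 46 reached 3 counts among the OVX + RAL, 40 among the OVX + v, 32 among the sham + v and 28 among the OVX + E2 libraries, or 92.0%, 80.0%, 64.0% and 56.0%. Over all 14870 genes with 10 counts or more in the 20 libraries, the shares were 64.5%, 64.0%, 59.8% and 51.2% in the same order of groups, which was also the order of their median depths except that the sham + v libraries (median 1788489 counts) were deeper than the OVX + v libraries (median 1605308). The part of depth in the detection of the 10 genes was not tested. Of the 36 combinations of a gene and a group with a library at 50 counts or more, 55.6% had another library at 0, beside 43.0% of such combinations over all 14870 genes. For the spread fitted by edgeR, the median coefficient of variation of the 10 genes was 1.48, 1.58 and 1.12 in the 3 comparisons, beside 1.56, 1.78 and 1.43 over all genes tested.

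The 10 genes did not all vary together. With the group means removed, the correlation (Pearson, on log2(CPM + 1), 20 libraries) of each gene with the mean of the other 9 ran from -0.16 for *Cx3cr1* and -0.10 for *Csf1r* to 0.44 for *Fcer1g* and 0.67 for *C1qa*. Sham + v replicate 1 had the highest *C1qb*, *Tyrobp* and *Lyz2* of all libraries but only 7 counts of *Csf1r*. OVX + v replicate 8 had the highest *Csf1r* with 198 counts, but 1 count of C1q. The genes outside the group whose levels followed the mean of the 10 genes most closely, of 8548 compared, were *Rnf7* (r = 0.77), *Dhx16* (0.76), *S1pr1* (0.76), *Serping1* (0.75), *Fam98a* (0.75), *Dcn* (0.74), *Gart* (0.71) and *Dipk2a* (0.70). *Dcn* encodes decorin, a matrix proteoglycan of fibroblasts, and *Serping1* the C1 inhibitor. Each library gives all of its levels from 1 count table of a given depth, and these correlations are a description.

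Other genes of macrophages and of the same pathways were examined from lists. None of the 18 further macrophage identity genes passed the test in any comparison. Of those tested, 5 were higher and 11 lower, 6 higher and 10 lower, and 10 higher and 8 lower in the 3 comparisons, with median log2 fold changes of -0.71, -0.45 and 0.75. *Csf2ra*, a chain of the GM-CSF receptor, had 139 ± 124, 103 ± 31.0, 32.7 ± 14.48 and 101 ± 82.6 CPM in the 4 groups. Its log2 fold change in the OVX + E2 group was -1.65 (standard error 0.90, adjusted p = 0.427, edgeR). *Ctss*, which encodes the lysosomal protease cathepsin S, had 17.4 ± 20.4, 35.3 ± 20.5, 59.2 ± 47.7 and 74.1 ± 28.7 CPM, and *Mertk*, a receptor for dying cells, 20.4 ± 15.8, 51.5 ± 33.7, 39.12 ± 35.98 and 48.8 ± 31.2 CPM. The common leukocyte gene *Ptprc* (CD45), named after its values were seen, had no count in the sham + v, OVX + v and OVX + E2 groups and 3 counts or more in 3 OVX + RAL libraries. Of the 16 lysosomal genes 0 passed, and the medians were -0.06, 0.08 and 0.11. *Psap*, which encodes prosaposin, averaged 2286 CPM and had 3 counts or more in all 20 libraries.

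Of the 21 complement genes beyond C1q, 19 had a count and 0 passed the test in any comparison, with medians of -0.62, -0.04 and -0.13. *Cd59a*, a membrane inhibitor of complement, averaged 194 CPM and *Serping1* 186 CPM, and both had 3 counts or more in all 20 libraries. *C2* and *C4b*, which encode the components that the activated C1 complex cleaves, averaged 26.7 and 25.2 CPM. *C4b* had 0.884 ± 1.70, 6.36 ± 6.41, 65.4 ± 61.1 and 28.2 ± 26.2 CPM in the 4 groups (log2 fold change 3.35, standard error 1.47 and adjusted p = 0.351 in the OVX + E2 group, edgeR). Of the 20 Fc receptors and signaling partners of the adaptors, 15 had a count and 0 passed, with medians of -1.63, 0.75 and -0.41. *Fcgr3*, a receptor for immunoglobulin G that signals through FCER1G, had 42.8 ± 60.4 CPM in the OVX + E2 group and 9.62 ± 15.8 CPM in the OVX + v group (log2 fold change 2.15, standard error 1.68, adjusted p = 0.878, edgeR), a difference of the opposite sign to that of *Fcer1g*. *Trem2*, whose product signals through TYROBP, reached 3 counts in 11 libraries and averaged 10.8 CPM, and *Lyn*, a kinase of these receptors, reached it in 11 and averaged 12.5 CPM.

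Genes that place macrophages in particular niches were also counted unevenly. Of 14 perivascular and tissue-resident macrophage genes 11 had a count and 0 passed, with medians of 0.39, 0.19 and 0.71, and *Timd4*, *Ccl24* and *Ccl8* were at 0 throughout. *Maf* (230 CPM), *Gas6* (216 CPM) and *Igf1* (60.4 CPM) were the most abundant of this list, and fibroblasts and other cells express them too. *Pf4* had 32.4 ± 45.2, 18.9 ± 16.2, 47.8 ± 72.5 and 18.7 ± 13.6 CPM in the 4 groups. Of 10 microglia genes 9 had a count and 0 passed, with medians of -0.57, -0.80 and -0.40. *P2ry12* was at 0 throughout, and *Olfml3* averaged 31.99 CPM. Of 10 monocyte genes 9 had a count and 0 passed, with medians of 2.35, 0.28 and 0.39 over the 6, 3 and 5 tested. *Ccr2*, *F10* and *Ace*, each higher in the sham + v than in the OVX + v group, reached 3 counts in only 2, 2 and 1 of the 20 libraries. The summed level of the list was 156 ± 89.2, 129 ± 65.9, 165 ± 85.3 and 171 ± 117 CPM in the 4 groups. *Vcan*, also a matrix gene, averaged 130 CPM and *Nr4a1* 20.1 CPM, while *Ccr2*, *Ly6c2* and *Plac8* reached 3 counts in at most 2 libraries.

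Markers of other cells that share some of the 10 genes were summed in each library. Of the neutrophil markers, *S100a8* (9.93 CPM), *Ltf* (8.68 CPM) and *S100a9* (6.00 CPM) led, and 0 of the 10 passed an adjusted p of 0.05 in any comparison. The summed level was 0 to 142 CPM in the sham + v, 0 to 204 in the OVX + v, 0 to 0.890 in the OVX + E2 and 0 to 62.8 CPM in the OVX + RAL libraries. In the OVX + E2 comparison all 6 markers tested were lower, with a median of -5.53 and a smallest adjusted p of 0.351 (edgeR). With the OVX + E2 libraries at 0 to 0.890 CPM, a marker could reach the 10 counts needed for testing only through the OVX + v libraries. The shared direction was therefore fixed by the filter. All 6 had an unadjusted p under 0.05 (edgeR). So did 13.9% of all genes tested, 0 of the 16 lysosomal genes and 6 of the 12 Fc receptors and signaling partners tested. The summed markers of T and NK cells reached at most 70.3 CPM, of B cells 62.3, of mast cells 58.2, of dendritic cells 75.6 and of osteoclasts 96.0 CPM in any library. *Cd3e*, *Cd3g*, *Trbc2*, *Ncr1*, *Ms4a1*, *Xcr1*, *Clec9a*, *Oscar* and *Calcr* were at 0 in all 20. Other markers of these lists were detected more often. *Cd79a* of B cells (13.1 CPM) reached 3 counts in 15 libraries and *Zbtb46* of dendritic cells (13.1 CPM) in 13. *Kit* of mast cells (15.1 CPM) and *Ctsk* of osteoclasts (11.4 CPM) each reached it in 11, and *Cd4* of T cells (5.21 CPM) in 3. The summed hemoglobin and heme synthesis genes, markers of red blood cells, lay between 363 and 3837 CPM. None of the genes of these lists passed the test in any comparison, and none of the 8 hair cell or 6 supporting cell and otoconia markers did.

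**Figure D5:**
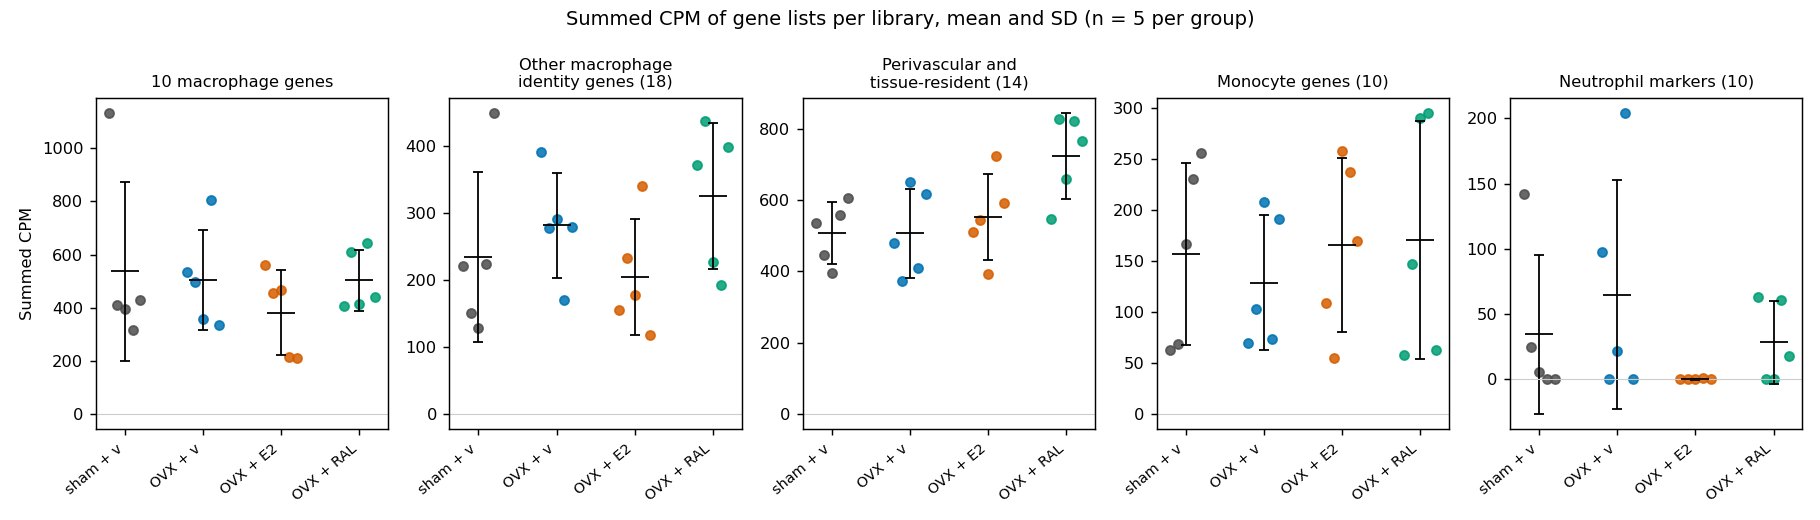
Summed CPM per library (points, vertical axes linear) of the 10 macrophage genes, 18 other macrophage identity genes, 14 perivascular and tissue-resident macrophage genes, 10 monocyte genes and 10 neutrophil markers, by group with mean and SD of 5 libraries. The groups overlap in each panel; sham + v replicate 1 stands highest among the 10 macrophage genes with 1133 CPM, and the neutrophil markers of the 5 OVX + E2 libraries lie at 0 to 0.890 CPM.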

How the data were processed

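Total RNA of 20 utricle libraries was sequenced for 75 cycles from the 3′ end. According to the paper's methods, the authors worked in CLC Genomics Workbench. They trimmed adaptors, poly(A) and the first 12 nucleotides, dropped reads under 20 nucleotides and mapped to GRCm39 with default settings. The paper does not describe how reads were counted per gene. The software version and what the defaults were for strand and for reads matching several genes are not given in the sources used here. The deposited total counts are raw read counts per gene, and they alone were used. The CPM, TPM, RPKM, fold change and p-value columns are the authors' own and were not used. Columns of samples from elsewhere numbered 0. Conditions came from the labels.

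CPM was computed with the total count per library. The OVX + v group was the reference of every comparison, by edgeR 4.0.16 (R 4.3.3; estimateDisp, glmQLFit, glmQLFTest), with the total count as library size, on genes with 10 counts or more over the fitted libraries, with Benjamini-Hochberg adjustment and a threshold of 0.05; all 4 groups were compared in 1 fit. The standard error is the size of the log2 fold change over the square root of F. Exact two-sided permutation tests over all groupings used log2(CPM + 1). Alternatives were TMM factors, DESeq2 1.42.0, limma 3.58.1, other filters, the robust and newer forms of glmQLFit, a joint fit, a pseudocount of 10, *Lyz1* and *Lyz2* summed, and each library left out. The newer form of glmQLFit and the fit without the libraries richest in neutrophil markers were added after seeing the data. Windows of 63 bases were compared over GENCODE vM39 transcripts, within the 3′ ends of the listed genes. Its transcripts of *C1qb*, *C1qc*, *Csf1r* and *Lyz2* run 1431, 649, 1314 and 1679 bases past those ends. Reads from these bases may not be counted for the 4 genes, so that levels of different genes may not be on 1 scale. This was not tested. Scripts were tested on simulated data.

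The 10 genes and the lists were chosen with earlier results of these data known. Named were the 10 genes and *Lyz1*, and of each list the genes past the threshold and up to 4 with the highest mean CPM, the fixed cell type markers, and the 8 genes most like the mean of the 10. *Ptprc* and *Mpeg1* lie outside this rule, and some genes that it covers are not reported here.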

Additional observations from a re-analysis of the deposited data

Results flagged for a closer look

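In 8 of the 44 groups of 5 values examined (the 10 genes and their sum in 4 groups), 1 library stood apart from the other 4 by more than Dixon's 95% ratio for 5 values. For values that spread evenly around a mean, about 1 in 20 groups, or 2.2, would be expected. How often this occurs over all genes was not examined, so that the 8 are not read as a trait of the 10 genes. Sham + v replicate 1 stood above its group for *Lyz2* (585 CPM) and for the summed level of the 10 genes (1133 CPM). *Lyz2* made 51.6% of the counts of the 10 genes in that library, so that these 2 flags are not independent. In the OVX + v group, replicate 10 stood apart for *Mrc1* (35.5 CPM) and replicate 9 for *Cd68* (54.98 CPM). In the OVX + E2 group, replicate 11 stood apart for *C1qc* (86.2 CPM), replicate 12 for *Fcer1g* (6.80 CPM) and replicate 15 for *Cd68* (33.0 CPM). In the OVX + RAL group, replicate 17 stood apart for *Tyrobp* (73.8 CPM). All 8 were the highest of their group. The 3 libraries of the OVX + E2 group were different ones, and for each of these 3 genes the other 4 libraries had 3 counts or fewer. Dixon's ratio is made for values that spread evenly around a mean, and counts with many values at 0 are not of that kind.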

How the results depend on the processing

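No alternative brought any of the 10 genes past the threshold, and 0 of 549 alternative fold changes in the 3 comparisons gave a call. The smallest adjusted p was 0.0606, for *C1qc* among the 4 groups without OVX + E2 replicate 11. Of the 30 differences, 16 reversed in at least 1 alternative (39 values in all); the cause was not tested. TMM factors moved the median of all genes in the OVX + E2 comparison from -0.06 to -0.17 on the log2 scale and reversed none of the 10 genes. With limma on log2(CPM + 1), *C1qc* (0.25), *Tyrobp* (-0.89) and *Fcer1g* (-0.50) reversed in the sham + v group, *C1qb* (-0.045) and *Tyrobp* (-0.024) in the OVX + E2 group and *Cd68* (0.19) in the OVX + RAL group. With log2(CPM + 10) in the permutation test, *Tyrobp* (0.059) and *Cd68* (0.0034) reversed in the sham + v, *Tyrobp* (0.35) in the OVX + E2 and *Cd68* (-0.19) in the OVX + RAL group. Without the libraries richest in neutrophil markers, sham + v replicate 1 and OVX + v replicate 9, *C1qa* (0.14), *Mrc1* (-0.70), *Fcer1g* (-0.034) and *Cd68* (0.60) reversed.

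With each library left out in turn, the log2 fold changes that reversed ranged in the sham + v group from -0.52 to 0.54 for *C1qa*, -0.49 to 1.08 for *C1qc*, -1.32 to 1.81 for *Cd68*, -0.63 to 0.66 for *Fcer1g*, -0.20 to 0.59 for *Lyz2* and -0.38 to 2.51 for *Mrc1*. In the OVX + E2 group they ranged from -0.15 to 1.12 for *C1qa*, -0.28 to 0.92 for *C1qb*, -5.56 to 0.89 for *Cd68*, -0.78 to 0.16 for *Cx3cr1* and -0.11 to 3.37 for *Mrc1*, and in the OVX + RAL group from -0.074 to 1.41 for *C1qc*, -1.71 to 0.76 for *Cd68* and -0.74 to 0.14 for *Csf1r*. *Fcer1g* in the OVX + E2 group kept its direction, from -6.33 to -3.11.

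The number of all genes past the threshold was 2, 8, 4 and 21 in the 3 comparisons, sham + v, OVX + E2 and OVX + RAL in order, and among the 4 groups. In the sham + v comparison it was 1 with TMM, with DESeq2 and with the newer glmQLFit, 0 with the default filter and with the robust form, 4 with limma, and 9 without both libraries richest in neutrophil markers. It was 35 with DESeq2, 1 with the default filter and 4 with the robust form in the OVX + E2 comparison. In the OVX + RAL comparison it was 0 with the default filter and the robust form and 7 with the newer glmQLFit. Among the 4 groups it was 2 with DESeq2, 1 with the default filter, 0 with limma and 5 with the robust form. With each library left out it ranged from 1 to 10 in the sham + v, 6 to 17 in the OVX + E2 and 3 to 11 in the OVX + RAL comparison, and 17 to 28 among the 4 groups. The default filter left *Cd68* untested against the OVX + v group, and *Mrc1* in the OVX + E2 comparison. No paired analysis was possible because the replicate numbers 1 to 20 of the labels are shared by no groups.

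The libraries held 1123053 to 2081747 counts, and levels under 1.44 to 2.67 CPM (3 counts) were not detectable. The parts of depth and of the spread between libraries in the width of the intervals were not tested. Of the 9 genes other than *Lyz2*, the narrowest 95% interval was that of *C1qc* in the OVX + RAL comparison (-1.05 to 1.55 on the log2 scale).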
